A study of Mus musculus with 6 samples.

Results

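The nuclear-encoded genes of the mitochondrial respiratory chain were compared between lineage-depleted marrow labelled Stag2KO and Stag2WT, complex by complex. Genes were taken from the deposited count table by symbol: the Ndufa, Ndufb, Ndufc, Ndufs and Ndufv genes of complex I, Sdha to Sdhd of complex II, the Uqcr genes of complex III, the Cox4 to Cox8 subunit genes of complex IV, and the Atp5 genes of complex V. Assembly factors with Ndufaf symbols, pseudogene symbols ending in -ps and the tissue isoform Cox6a2 were left out. The rule found 85 of 33924 listed genes, and 80 of the 85 were expressed highly enough to be tested (15708 in the whole table). They fell to complex I with 38 genes, complex II with 4, complex III with 8, complex IV with 17 and complex V with 18. The 5 untested genes were Ndufa4l2, Cox7b2, Cox8b, Cox8c and Atp5l2.

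The respiratory chain sits in the inner mitochondrial membrane. Complexes I and II pass electrons from NADH and succinate to ubiquinone, complex III hands them to cytochrome c and complex IV to oxygen, while complexes I, III and IV pump protons. Complex V, the ATP synthase, lets the protons back and makes ATP. Most subunits are encoded in the nucleus and imported, and a small set is encoded by mitochondrial DNA, so both genomes must be expressed to build complexes I, III, IV and V. In blood formation, long-lived stem cells are known for relying little on respiration, and their dividing progeny and red cell precursors for relying on it more.

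The study measured RNA in 6 mouse bone marrow libraries, prepared after beads had taken out cells carrying lineage markers, 3 labelled Stag2KO and 3 labelled Stag2WT. The sources used here do not give the allele, the agent or Cre that deletes it, or the age and sex of the animals. They also do not say that each library is a different animal, so the p-values speak to the spread among these 6 libraries, which may be technical. Stag2, which encodes a cohesin subunit, stood at 169, 186 and 183 CPM (read count relative to the TMM-scaled library size) in the Stag2KO libraries and 338, 328 and 324 CPM in the Stag2WT libraries. Libraries held 29435651 to 37722325 gene reads, and the progenitor markers Kit, Cd34, Flt3, Gata2, Meis1, Myb, Mpo and Ptprc were all expressed. Summed, these 8 stood higher in Stag2KO, at 9453 ± 493 against 6701 ± 566 CPM (SD, n = 3 each). Most of this sum was Mpo, at 7606 ± 494 against 5089 ± 558 CPM, a gene also in the neutrophil marker list used below. Cd34, Gata2, Meis1 and Mpo were called higher and 0 were called lower, where 10.7% of all tested genes were called higher and 10.5% lower. Kit (log2 fold change 0.05), Ptprc (0.13), Myb (0.20) and Flt3 (-0.28) were not called. Marrow after depletion is a mixture of cells, so fewer cells of a type and less RNA per cell cannot be told apart.

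Before any result, the libraries themselves differed for these genes. Stag2WT replicate 2 held the highest value of 74 of the 80 tested genes, and Stag2KO replicate 2 the lowest value of 48. The reads of the 85 genes made up 0.938%, 0.931% and 0.913% of gene reads in the Stag2KO libraries and 0.966%, 1.13% and 1.02% in the Stag2WT libraries. Every Stag2WT library thus lay above every Stag2KO library, with Stag2WT replicate 2 farthest out.

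For 3 genes the sequence just before the transcription start is shown: these are the called genes with the smallest p among those with a single start window in the RefSeq promoter table (build GRCm38.p6). All 85 genes were matched to RefSeq, 81 by symbol and 4 by an older symbol, and 70 had a promoter window of 300 bases, 250 before and 50 after the start. Each stretch holds the 120 bases before the start, 5′ to 3′ on the minus strand, with a match to the NRF1 motif (GCGCA, any base, then GCGC) in capitals. NRF1 is a transcription factor long known for binding promoters of respiratory chain genes. Cox7c lies at chr13:86046796-86046915, Atp5k at chr5:108434400-108434519 and Sdhd at chr9:50603850-50603969.
Cox7c: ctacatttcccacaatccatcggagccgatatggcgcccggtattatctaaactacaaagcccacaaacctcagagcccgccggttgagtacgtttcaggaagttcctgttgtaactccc
Atp5k: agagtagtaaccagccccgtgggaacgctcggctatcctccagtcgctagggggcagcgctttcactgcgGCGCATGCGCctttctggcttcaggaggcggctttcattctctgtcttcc
Sdhd: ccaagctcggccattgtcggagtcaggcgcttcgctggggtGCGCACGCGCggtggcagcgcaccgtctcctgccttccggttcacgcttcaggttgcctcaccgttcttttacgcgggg

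The NRF1 match began 50 bases before the start in Atp5k and 79 bases before it in Sdhd, and the Cox7c stretch held none. Searched on both strands over the 300-base windows, these letters occurred in 17 of the 68 tested genes of the chain that had a window (25%), against 10.7% of all 11153 tested genes with a window and 5.19% of all 27025 genes with one. The letters AAGATGGCG of the YY1 motif occurred in 8 of 68 (11.8%), against 3.32% of tested genes and 1.64% of all. The letters CCGGAAGT of the ETS motif, read by the GABP factor, occurred in 5 of 68 (7.35%), against 8.52% of tested genes and 4.31% of all. Of the 19 genes called lower that had a window, 5 held the NRF1 letters (26.3%), 3 the YY1 letters (15.8%) and 0 the ETS letters. These searches were not set to overlap one another, and a match describes letters only.

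Respiratory chain genes were lower in the Stag2KO libraries in nearly every case, by a small amount. Of 80 tested genes, 75 had a negative log2 fold change, where 49.3% of all tested genes had one. Their median log2 fold change was -0.21, against 0.01 over all genes, and the middle of the distribution ran from -0.29 to -0.15. At an adjusted p under 0.05 by edgeR's quasi-likelihood test, 20 fell and 0 rose, where 10.5% of all tested genes were called lower and 10.7% higher. At an unadjusted p under 0.05, 48 were lower and 1 was higher, where 18.5% of all tested genes were lower and 18.6% higher. DESeq2 called 27 lower and 0 higher, where it called 13.0% of all tested genes lower and 11.7% higher. All 3 Stag2KO values lay below all 3 Stag2WT values for 48 of 80 genes (21.2% of all tested genes), and the opposite held for 1 gene (22.2% of all tested genes). The called falls were modest, from -0.23 to -0.51 on the log2 scale with standard errors of 0.07 to 0.11 and adjusted p of 0.00792 to 0.0485.

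**Figure D1:**
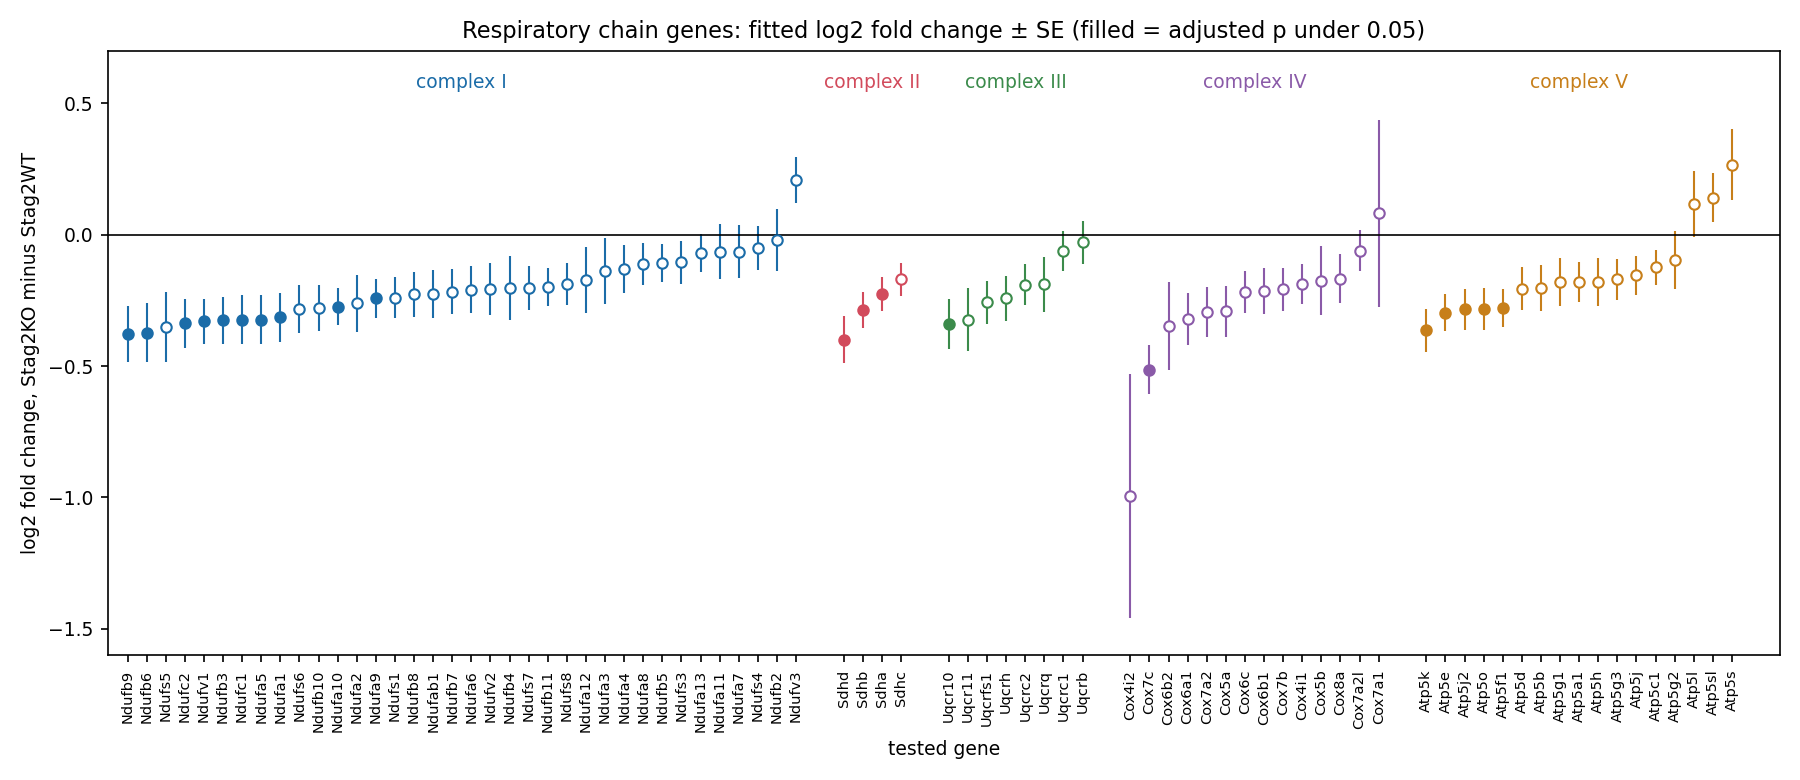
Fitted log2 fold change of Stag2KO minus Stag2WT for 79 of the 80 tested respiratory chain genes, one point per gene with its standard error, grouped by complex and sorted within it. Filled points are the 20 genes with an adjusted p under 0.05, all below 0, and 74 of the 79 points lie below 0.

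These calls depended on single libraries. Without Stag2KO replicate 1, 2 or 3, the genes called lower numbered 7, 2 and 2, of which 5, 2 and 2 were among the 20. Without Stag2WT replicate 1, 2 or 3 they numbered 18, 8 and 16, of which 14, 8 and 14 were among the 20. In all of these fits 0 were called higher. Over all genes, the calls in both directions fell from 3333 to between 1967 and 2548. Without Stag2WT replicate 2 the median over the respiratory genes moved from -0.21 to -0.13, and 70 of 80 genes were negative. Cox7c was the only one of the 20 that kept its call in all 6 of these fits. Reads falling in no annotated gene took a larger share in Stag2KO, at 11.1%, 12.8% and 11.2% against 8.84%, 8.81% and 10.1%. With that share as a covariate, 0 genes of the chain were called lower, the median was -0.051 and 54 of 80 were negative, and 67 genes of the whole table were called. Each Stag2KO share lay above each Stag2WT share, so the share and genotype cannot be fully told apart in that fit. Stag2 itself had an edgeR adjusted p of 0.0453 in it.

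**Figure D2:**
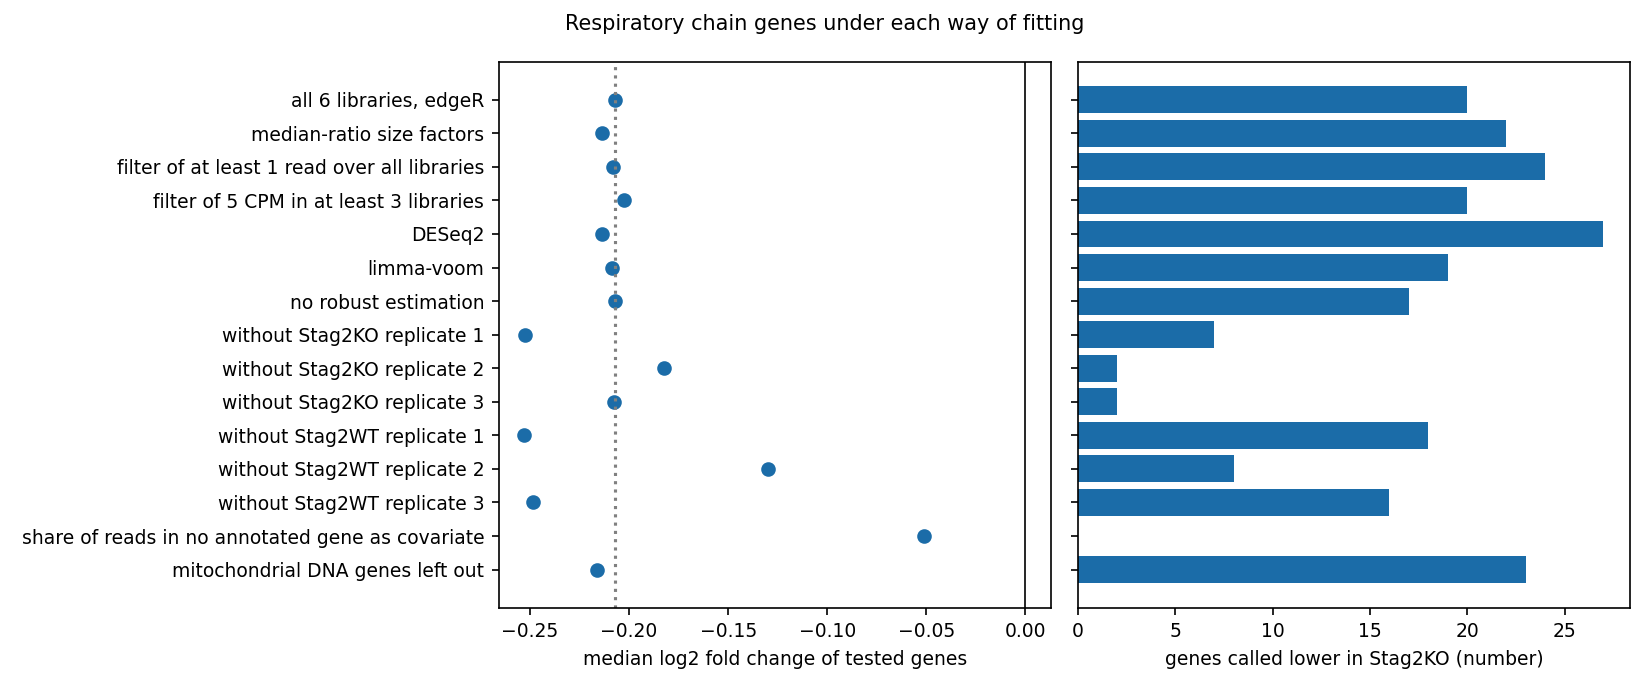
Left, the median log2 fold change over the tested respiratory chain genes; right, the number of them called lower in Stag2KO, for the fit of all 6 libraries and each alternative. The median stays below 0 throughout, from -0.25 to -0.051, while the number called runs from 0 to 27.

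The sums by complex gave the same picture at the level of libraries. The complex II genes summed to 651, 663 and 636 CPM in Stag2KO and 755, 847 and 749 CPM in Stag2WT, so Stag2KO stood at 82.9% of Stag2WT. The complex I genes summed to 2482, 2294 and 2335 CPM against 2587, 3019 and 2569 CPM, or 87.0%. The complex III genes summed to 972, 904 and 928 CPM against 1004, 1173 and 1008 CPM, or 88.0%. The complex IV genes summed to 1495, 1325 and 1376 CPM against 1518, 1824 and 1545 CPM, or 85.9%. The complex V genes summed to 3851, 3766 and 3745 CPM against 4068, 4730 and 4201 CPM, or 87.4%. With TMM scaling the groups did not overlap in any of the 5 complexes. With unscaled library sizes the complex IV groups overlapped, with Stag2KO replicate 1 at 1483 CPM and Stag2WT replicate 1 at 1477 CPM. Stag2WT replicate 2 was the highest library in each, and Stag2KO replicate 1 was the highest Stag2KO library in complexes I, III, IV and V. Differences between the complexes were not tested.

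**Figure D3:**
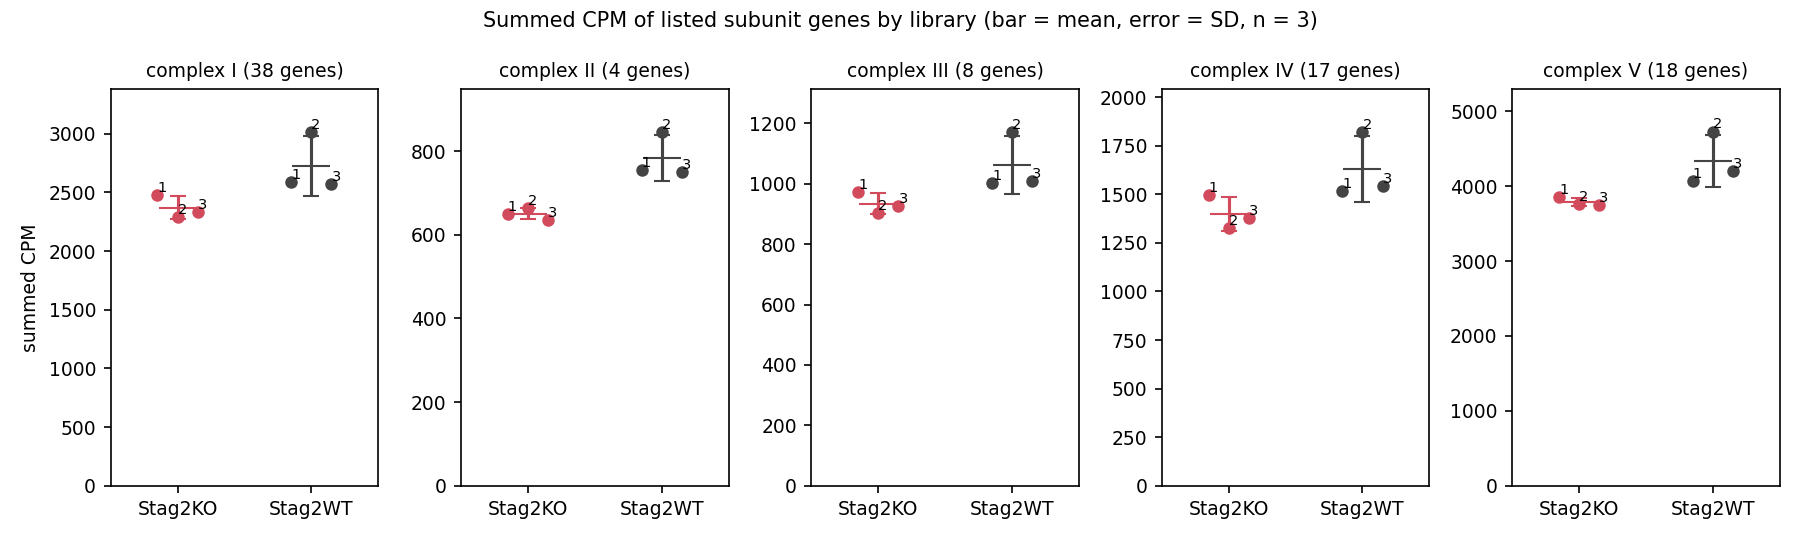
Summed CPM of the listed genes of each complex in each library, numbered by replicate, with the mean and SD (n = 3 per group) and each axis starting at 0. The 3 Stag2KO points lie below the 3 Stag2WT points in every panel, and replicate 2 is the highest Stag2WT library in each.

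Complex I takes electrons from NADH and is the largest complex of the chain. Of its 37 tested genes, 36 had a negative log2 fold change, with a median of -0.21. By the test 10 fell, 0 rose and 27 were not called, where 10.5% of all tested genes were called lower and 10.7% higher. In 23 the Stag2KO values all lay below the Stag2WT values, where 21.2% of all tested genes lay in this way. The 7 nuclear-encoded core subunits carry the flavin and iron-sulfur clusters that move the electrons. All 7 were negative (median -0.20), and 1 of them was called.

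That gene was Ndufv1, whose protein binds NADH and the flavin. It stood at 110.1, 109 and 103 CPM in Stag2KO and 127, 153 and 125 CPM in Stag2WT, with no overlap between groups (log2 fold change -0.33, SE 0.09, adjusted p = 0.0298). Ndufs1, the largest iron-sulfur subunit, was at 109, 119 and 113 against 131, 148 and 123 CPM. Its groups did not overlap either, but it did not pass the test (-0.24, adjusted p = 0.0634). The core genes Ndufv2 (-0.21), Ndufs7 (-0.20), Ndufs8 (-0.19) and Ndufs3 (-0.11) were not called, with adjusted p from 0.12 to 0.373, and the values of Ndufv2 and Ndufs3 overlapped between groups.

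The 30 other tested genes counted here by symbol are Ndufa4, now placed in complex IV, and genes of accessory subunits. Accessory subunits surround the core and are needed to assemble it. Of the 30 genes, 9 fell, where 10.5% of all tested genes were called lower. Ndufa10 had the smallest p of the complex, at 119.9, 115.6 and 115.8 CPM in Stag2KO against 134, 154 and 137 CPM in Stag2WT (-0.27, SE 0.07, adjusted p = 0.0275). Ndufb3, in the membrane arm, was at 44.8, 39.7 and 39.8 against 50.5, 57.1 and 48.0 CPM (-0.33, SE 0.09, adjusted p = 0.0351). In both, each Stag2KO library lay below each Stag2WT library. Ndufb9 had the most negative log2 fold change of the complex (-0.38, adjusted p = 0.038), with Stag2KO values within 71.5 to 72.8 CPM and Stag2WT values from 83.0 to 111 CPM. Ndufc2 (-0.34), Ndufa5 (-0.32), Ndufc1 (-0.32), Ndufa1 (-0.31), Ndufb6 (-0.37) and Ndufa9 (-0.24) completed the called genes.

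Not every accessory gene was lower. Ndufv3, an accessory gene of the NADH-binding end, was the only complex I gene with a positive log2 fold change (0.21, SE 0.09, adjusted p = 0.126). It stood at 78.3, 63.2 and 68.3 CPM in Stag2KO and 59.8, 63.8 and 58.1 CPM in Stag2WT, so the groups overlapped and it was not called. Ndufs4, an accessory gene, had a log2 fold change of -0.05 (SE 0.08, adjusted p = 0.69), with 52.7, 51.5 and 51.7 against 51.9, 60.0 and 49.4 CPM. Ndufb2 (-0.02), Ndufa11 (-0.06), Ndufa7 (-0.06) and Ndufa13 (-0.07) also had values near 0 that overlapped between groups.

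Of these complex I calls, Ndufa10 and Ndufv1 were lost without any 1 of the Stag2KO libraries (adjusted p 0.0598 to 0.0932) and held without any 1 of the Stag2WT libraries. Ndufb3 lost its call without replicate 2 (0.105) or 3 (0.113) of Stag2KO, or replicate 1 (0.0636) or 2 (0.0905) of Stag2WT.

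Complex II is succinate dehydrogenase, an enzyme shared by the chain and the TCA cycle, and the only complex without a subunit from mitochondrial DNA. All 4 of its genes were lower without overlap between groups, as were 21.2% of all tested genes. The test called 3 of the 4 lower, where it called 10.5% of all tested genes lower. Sdhd, a membrane anchor, was at 142, 161 and 147 CPM in Stag2KO and 187, 224 and 183 CPM in Stag2WT (-0.40, SE 0.09, adjusted p = 0.019). Sdhb, the iron-sulfur subunit, was at 98.8, 99.97 and 99.4 against 119, 132 and 113 CPM (-0.29, SE 0.07, adjusted p = 0.022). The Stag2KO values of Sdhb were tight, with an SD of 0.585 CPM against 9.56 CPM in Stag2WT. Sdha, the flavoprotein that oxidises succinate, was at 316, 313 and 297 against 348, 382 and 354 CPM (-0.23, SE 0.07, adjusted p = 0.0419). Sdhc, the other anchor, was at 93.7, 88.4 and 93.5 against 102, 109 and 98.5 CPM and did not pass the test (-0.17, SE 0.06, adjusted p = 0.0877).

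The Sdha call was lost whichever library was dropped (adjusted p 0.0603 to 0.161), and without a filter beyond 1 read (0.0527). The Sdhb call was lost without any 1 of the Stag2KO libraries (0.0611 to 0.0693), and the Sdhd call without Stag2KO replicate 1 (0.0611) or 3 (0.0577).

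Complex III passes electrons from ubiquinol to cytochrome c. All 8 of its genes had a negative log2 fold change (median -0.22), 1 was called, and in 5 the groups did not overlap. Of all tested genes, 10.5% were called lower and 21.2% had all Stag2KO values below all Stag2WT values. The called gene, Uqcr10, encodes a small membrane subunit and was at 60.2, 60.1 and 62.6 CPM in Stag2KO and 71.2, 89.1 and 71.1 CPM in Stag2WT (-0.34, SE 0.09, adjusted p = 0.0375). Uqcrfs1, the Rieske iron-sulfur protein, was at 102, 99.6 and 99.7 against 113, 135 and 111 CPM (-0.26, adjusted p = 0.0532). Uqcrh, the hinge protein that helps dock the cytochrome, was at 154, 147 and 150 against 171, 202 and 161 CPM (-0.24, adjusted p = 0.079). Neither passed the test, although every Stag2KO library lay below every Stag2WT library in both.

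The core protein gene Uqcrc1 (-0.06, adjusted p = 0.592) and the small subunit gene Uqcrb (-0.03, adjusted p = 0.826) were near 0 and overlapped between groups, while the other core protein gene Uqcrc2 was at -0.19 (adjusted p = 0.11) without overlap. The Uqcr10 call was lost without any 1 of the Stag2KO libraries (adjusted p 0.0792 to 0.101). Cyc1, the cytochrome c1 gene, belongs to the complex but not to the symbol rule; it was at 127, 135 and 127 against 140, 162 and 146 CPM (-0.21, adjusted p = 0.0704).

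Complex IV, cytochrome c oxidase, reduces oxygen. Its 14 tested genes had a median log2 fold change of -0.22, with 13 negative, 1 called, and 7 whose Stag2KO values all lay below the Stag2WT values. Of all tested genes, 10.5% were called lower and 21.2% lay below in this way. Cox7c, which encodes a small membrane subunit, was the called gene and had the smallest p of the whole set. It stood at 44.7, 45.1 and 40.5 CPM in Stag2KO and 57.6, 70.1 and 58.3 CPM in Stag2WT with no overlap (log2 fold change -0.51, SE 0.09, adjusted p = 0.00792). Without any 1 library its adjusted p ran from 0.0137 to 0.0295, and without Stag2WT replicate 2 its log2 fold change was -0.42. With the unannotated read share as covariate the adjusted p was 0.386.

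Cox6a1, encoding a subunit at the outer face, was just short of the threshold at 137, 113 and 118 against 140, 171 and 148 CPM (-0.32, SE 0.10, adjusted p = 0.05003). It was called without Stag2KO replicate 1 (0.0355) or Stag2WT replicate 1 (0.0498). Cox7a2 was at 102, 86.0 and 89.1 against 106, 128 and 105 CPM (-0.29, adjusted p = 0.0607). Its groups did not overlap. Cox4i1, encoding the subunit through which ATP regulates the enzyme, was at 260, 248 and 263 against 274, 323 and 281 CPM (-0.19, adjusted p = 0.112).

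Several complex IV subunits exist as tissue isoforms, which these libraries held at very different read counts. The lung isoform Cox4i2 made up 0.111% ± 0.0301 of the Cox4i1 and Cox4i2 reads in Stag2KO and 0.19% ± 0.0861 in Stag2WT (SD, n = 3 each). Cox4i2 had only 88 reads in all libraries together, and its log2 fold change of -0.99 (SE 0.46, adjusted p = 0.158) was not called; it was called without Stag2WT replicate 1 (adjusted p = 0.0455). The testis isoform Cox6b2, by contrast, was well covered, with 15.2% ± 2.44 of the Cox6b1 and Cox6b2 reads in Stag2KO and 16.6% ± 0.847 in Stag2WT. Cox6b2 was at 34.6, 25.6 and 21.96 against 34.5, 38.9 and 31.0 CPM (-0.35, adjusted p = 0.176), and Cox6b1 was at -0.21 (adjusted p = 0.11). The value of Stag2KO replicate 1 stood inside the Stag2WT range, and without that library Cox6b2 was called (-0.55, adjusted p = 0.0308).

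Cox7a2l encodes a relative of Cox7a2 that is built into supercomplexes joining complexes III and IV. It was at 116, 110.2 and 121 CPM in Stag2KO and 118, 133 and 110.7 CPM in Stag2WT (-0.06, SE 0.08, adjusted p = 0.599), with overlapping groups. Its share of the reads of Cox7a1, Cox7a2 and Cox7a2l was 53.2%, 56.1% and 57.3% in Stag2KO and 52.6%, 50.9% and 51.1% in Stag2WT, and that of Cox7a2 was 46.6%, 43.8% and 42.3% against 47.2%, 49.0% and 48.6%. The groups did not overlap in either share, and these shares do not depend on the scaling of libraries. The muscle isoform Cox7a1 was near the limit of detection, at 0.354 to 0.759 CPM over all libraries. Cox7b (-0.21, adjusted p = 0.0988) and Cox8a (-0.17, adjusted p = 0.228) were not called. Cox7b2 and Cox8c had 0 reads and Cox8b 2 reads; 3 reads, the limit that a count of 0 allows, correspond to 0.0795 to 0.102 CPM per library, for counting error only.

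Ndufa4, named as a complex I gene but now counted among the subunits of complex IV, was at 161, 137 and 144 against 148, 180 and 156 CPM (-0.13, adjusted p = 0.329). Its groups overlapped. Its paralog Ndufa4l2, known as a gene of the low-oxygen response, had 6 reads in all libraries and was not tested.

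Complex V has a soluble F1 head, where ATP is made, a membrane ring of c subunits, and a peripheral stalk that holds the head still. Of its 17 tested genes, 14 were negative (median -0.18), 5 fell, 0 rose and 12 were not called. The shares called over all tested genes were 10.5% lower and 10.7% higher. Atp5k, a small membrane subunit known for its part in joining ATP synthases in pairs, was at 55.2, 56.5 and 57.9 CPM in Stag2KO and 70.4, 81.1 and 66.7 CPM in Stag2WT (-0.36, SE 0.08, adjusted p = 0.0182). The Stag2KO values lay within 3 CPM of each other and below the Stag2WT range. Atp5e, the epsilon subunit of the central stalk, was at 91.3, 82.3 and 84.6 against 101, 114 and 102 CPM (-0.30, SE 0.07, adjusted p = 0.0231). Atp5f1, the b subunit of the peripheral stalk, was at 231, 212 and 213 against 254, 288 and 253 CPM (-0.28, SE 0.07, adjusted p = 0.0322). The groups were separate for each of these 3 genes. Atp5o, the subunit that ties the stalk to the head, and the membrane subunit gene Atp5j2 fell by 0.28 on the log2 scale each (adjusted p = 0.0375 and 0.0343).

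The F1 genes Atp5a1 and Atp5b encode the alpha and beta subunits that form the catalytic sites, and they held more reads than any other gene of the set. Atp5b was at 1187, 1175 and 1153 CPM in Stag2KO and 1244, 1493 and 1310.3 CPM in Stag2WT (-0.20, SE 0.09, adjusted p = 0.131). Atp5a1 was at 951, 985 and 952 against 1024, 1169 and 1081 CPM (-0.18, SE 0.08, adjusted p = 0.128). Neither passed the test, and in both all Stag2KO values lay below all Stag2WT values. The 3 genes of the c subunit, Atp5g1, Atp5g2 and Atp5g3, encode the same mature protein with different import sequences. Their reads were split alike in both groups, with Atp5g3 at 64.6% ± 1.39 in Stag2KO and 64.7% ± 0.163 in Stag2WT, Atp5g1 at 26.1% ± 0.942 and 26.5% ± 0.146, and Atp5g2 at 9.26% ± 0.452 and 8.84% ± 0.263 (SD, n = 3 each). Their log2 fold changes were -0.17, -0.18 and -0.10 for Atp5g3, Atp5g1 and Atp5g2, and none was called.

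The 3 positive values of complex V came from genes that were not called. Atp5s was the only gene of the set whose Stag2KO values, 17.3, 14.7 and 14.5 CPM, all lay above its Stag2WT values, 14.0, 13.8 and 10.8 CPM (0.27, SE 0.14, adjusted p = 0.188). Atp5sl was at 0.14 (adjusted p = 0.307). Both carry an Atp5 symbol in this table but are named Dmac2l and Dmac2 in RefSeq and are not subunits of the synthase by present naming. Atp5l, the g subunit, was at 13.8, 13.1 and 14.7 against 12.4, 14.7 and 11.3 CPM (0.12, adjusted p = 0.529). Atp5l2, a pseudogene in RefSeq, had too few reads to test.

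Atp5k was not called without replicate 1 (adjusted p = 0.0564) or 2 (0.0539) of Stag2KO. Those of Atp5e and Atp5f1 were lost without Stag2KO replicate 2 (0.0765 and 0.0981), Stag2KO replicate 3 (0.0772 and 0.107) or Stag2WT replicate 2 (0.0551 and 0.0681). Exons of 29 of the 85 genes overlap exons of another gene in GENCODE M21, 26 of them on the opposite strand. The called genes Atp5f1, Atp5o, Ndufa9, Ndufb6 and Ndufb9 are among the 29. Ndufb9 is overlapped on its own strand, Atp5o on both strands and Atp5f1, Ndufa9 and Ndufb6 on the opposite strand. Without a known strand setting, reads of opposite-strand neighbours cannot be told apart.

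**Figure D4:**
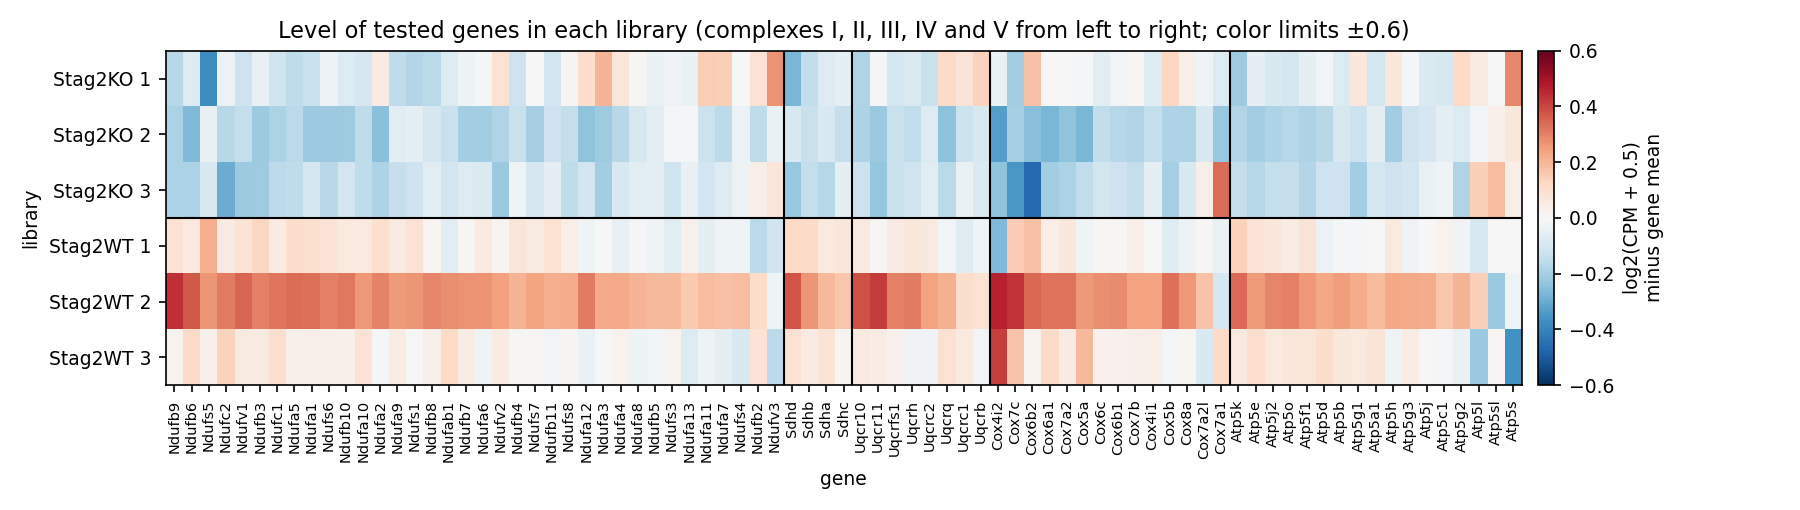
Level of 79 of the 80 tested genes (columns, by complex) in each of the 6 libraries (rows), as log2(CPM + 0.5) minus the gene's mean over libraries, with red higher and blue lower. Stag2WT replicate 2 is the reddest row, holding the highest value of 73 of the genes drawn, and Stag2KO replicate 2 holds the lowest value of 47.

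The libraries differed together over the whole chain. The median of the 80 genes, as log2(CPM + 0.5) minus each gene's mean over libraries, was -0.04, -0.16 and -0.12 in the Stag2KO libraries, by replicate number, and 0.03, 0.26 and 0.03 in those of Stag2WT. Stag2KO replicate 1 therefore lay nearer to 2 of the Stag2WT libraries than Stag2WT replicate 2 did. Each complex gave the same first place to Stag2WT replicate 2, at 0.23 to 0.28. Marker sums of other cells also differed between the groups. The 14 erythroid markers summed to 3536, 3481 and 2709 CPM in Stag2KO and 4719, 6000 and 3562 CPM in Stag2WT, also highest in Stag2WT replicate 2. Of these 14, 5 were called lower (Klf1, Epor, Tfrc, Ermap and Car2), 0 higher, and none was at 0 reads. The 13 macrophage and monocyte markers summed to 752 to 860 CPM against 1317 to 1562 CPM (11 called lower, Ccr2 at 0.77 not called). The 8 eosinophil markers summed to 3772 to 5829 CPM against 1129.7 to 1703 CPM (6 called higher). The 14 neutrophil markers summed to 18179 to 24966 CPM against 16079 to 17503 CPM. Of these, 5 were called higher: Elane, Prtn3, Ctsg, Cebpe and Mpo, which is also in the progenitor list. S100a8 (-0.26), S100a9 (-0.12) and Mmp8 (-0.62) were negative and not called. Ltf (0.09), Mmp9 (0.09), Lcn2 (0.46), Camp (0.70), Ngp (0.76) and Retnlg (0.91) were positive and not called. Eosinophil and neutrophil sums were highest in Stag2KO replicate 1, and the macrophage and monocyte sum was lowest among Stag2WT libraries in replicate 2. All 10 B lymphocyte markers were called lower (99.5 ± 6.87 against 277 ± 58.8 CPM), as were 5 of 8 T lymphocyte markers (60.7 ± 20.2 against 95.7 ± 27.6 CPM). Of 10 stromal and endothelial markers 6 were lower and 2 higher (213 ± 18.3 against 313 ± 16.3 CPM), and of 6 basophil and mast cell markers 3 were lower and 1 higher (1794 ± 53.0 against 2541 ± 52.2 CPM). Of 8 megakaryocyte markers 3 were higher (516 ± 62.5 against 408 ± 54.5 CPM). Beside these marker counts, 10.5% of all tested genes were called lower and 10.7% higher. No gene of these lists was at 0 reads, and the part of any of these cell types in the respiratory gene values was not tested.

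The subunits encoded by mitochondrial DNA could be followed only in part. Of 13 such genes, 7 held enough reads to test, and mt-Nd3, mt-Nd4l, mt-Co2, mt-Co3, mt-Atp6 and mt-Atp8 held 42 reads or fewer each. Reads that align to several places are not counted, and 23.4% to 28.6% of a library's table total was of that kind, so these low counts are no measure of the genes' levels. All 7 tested genes had a negative log2 fold change (median -0.34) and none was called by edgeR or DESeq2, also with 0 at an unadjusted p under 0.05, at adjusted p from 0.163 for mt-Cytb and 0.188 for mt-Nd2 to 0.647 for mt-Nd6. With mt-Co1 (-0.37, adjusted p = 0.296) these had the smallest p. The 13 genes took 5.3%, 3.56% and 4.31% of gene reads in Stag2KO and 7.08%, 4.78% and 4.54% in Stag2WT. The groups overlapped, and here Stag2WT replicate 1 was the highest library, not replicate 2. Nuclear-encoded respiratory reads per read of these genes came to 0.217 ± 0.0424 in Stag2KO and 0.199 ± 0.0544 in Stag2WT (SD, n = 3 each), a difference smaller than either SD.

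Other mitochondrial genes were counted in lists of fixed membership, chosen by pathway. Over all tested genes, 10.5% were called lower and 10.7% higher. The mitochondrial ribosome, which translates the subunits from mitochondrial DNA, showed a like shift: 23 of 75 tested protein genes fell, 0 rose, 67 had a negative log2 fold change, and the median was -0.22. Mrps23 was at 49.0, 45.7 and 45.3 CPM in Stag2KO and 58.1, 64.0 and 58.4 CPM in Stag2WT (-0.37, adjusted p = 0.00989), and Mrpl28 (-0.45, adjusted p = 0.0115) and Mrpl50 (-0.33, adjusted p = 0.0137) had the next smallest p. Of 27 genes of mitochondrial protein import and folding, 7 fell and 0 rose, led by the chaperonin pair Hspd1 (-0.54, adjusted p = 0.0165) and Hspe1 (-0.53, adjusted p = 0.0286) and the import oxidase gene Gfer (-0.40, adjusted p = 0.0231). Among 20 genes of mitochondrial genome expression 1 was called, the elongation factor gene Tufm (-0.30, adjusted p = 0.0125), and Mterfd3 (0.33, adjusted p = 0.104) and the DNA-packaging factor gene Tfam (-0.18, adjusted p = 0.119) were not.

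Mrpl50 was not called without replicate 2 (adjusted p = 0.0517) or 3 (0.0510) of Stag2KO, nor Tufm without Stag2KO replicate 3 (0.0542), nor Hspd1 without Stag2KO replicate 1 (0.0548) or 3 (0.0521). Hspe1 lost its call without any 1 of the Stag2KO libraries (0.0562 to 0.0822) or Stag2WT replicate 3 (0.0545), and Gfer without Stag2KO replicate 1 (0.0703), Stag2KO replicate 3 (0.0710) or Stag2WT replicate 2 (0.0582).

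Factors that assemble the complexes were counted apart from the subunits. For complex I, 0 of 12 were called (median -0.05), with Ndufaf2 (-0.38, adjusted p = 0.0607), Tmem70 (-0.21, adjusted p = 0.072) and Acad9 (0.16, adjusted p = 0.0753) nearest. At an unadjusted p under 0.05, 2 of the 12 were lower and 1 higher, and DESeq2 called 1 lower. For complex III 0 of 4 were called (median 0.08; Ttc19 0.11, Lyrm7 0.21, Bcs1l 0.05), and for complexes II and V 0 of 7 (median -0.17; Sdhaf2 -0.23, Usmg5 -0.21, 2010107E04Rik -0.17). DESeq2 also called 0 in both of these lists, and at an unadjusted p under 0.05 they held 0 and 1 lower genes. For complex IV 2 of 16 fell (median -0.11), where 10.5% of all tested genes were called lower. They were the copper carrier gene Cox17 (-0.39, adjusted p = 0.032) and Taco1, an activator of Cox1 translation (-0.36, adjusted p = 0.0346). Higd1a (-0.33, adjusted p = 0.07) was not called. Taco1 lost its call in each fit without 1 library (0.0526 to 0.127), and Cox17 in each except that without Stag2WT replicate 3 (0.0587 to 0.0861). A difference between assembly factors and subunits was not tested.

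Among 25 mobile carriers and neighbours of the chain, 17 had a negative log2 fold change, with a median of -0.11. In 11 the Stag2KO values all lay below the Stag2WT values and in 2 above, against 21.2% and 22.2% of all tested genes. At edgeR's unadjusted p under 0.05, 10 were lower and 2 higher, against 18.5% and 18.6% of all tested genes. Calls went both ways, with 4 of the 25 lower, 2 higher and 19 not called. Of all tested genes, 10.5% were called lower and 10.7% higher. Cycs, encoding cytochrome c, fell from 78.3 ± 7.09 to 56.5 ± 5.96 CPM (SD, n = 3 each), a log2 fold change of -0.47 (SE 0.10, edgeR adjusted p = 0.0134). Gpd2, which feeds electrons from glycerol 3-phosphate to ubiquinone, rose from 68.6 ± 2.94 to 91.0 ± 8.93 CPM (0.41, SE 0.08, adjusted p = 0.0121). In both, the groups did not overlap and the call held without any 1 library. Adck3, a gene of ubiquinone synthesis, rose as well (0.54, adjusted p = 0.0388) but kept its call in only 1 of the 6 fits without 1 library. Of 19 TCA cycle genes 2 fell, where 10.5% of all tested genes were called lower. These were the pyruvate carboxylase gene Pcx, from 13.5 ± 1.25 to 6.49 ± 0.782 CPM (-1.06, adjusted p = 0.00226), and Idh3a (-0.30, adjusted p = 0.0377). Fh1 (-0.24, adjusted p = 0.0634) was not called, and the Idh3a call held without Stag2WT replicate 1 or 3 only. Of the 19, 14 had a negative log2 fold change, with a median of -0.15. At edgeR's unadjusted p under 0.05, 10 were lower and 0 higher, against 18.5% and 18.6% of all tested genes. In 11 the Stag2KO values all lay below the Stag2WT values and in 1 above, against 21.2% and 22.2% of all tested genes.

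**Figure D5:**
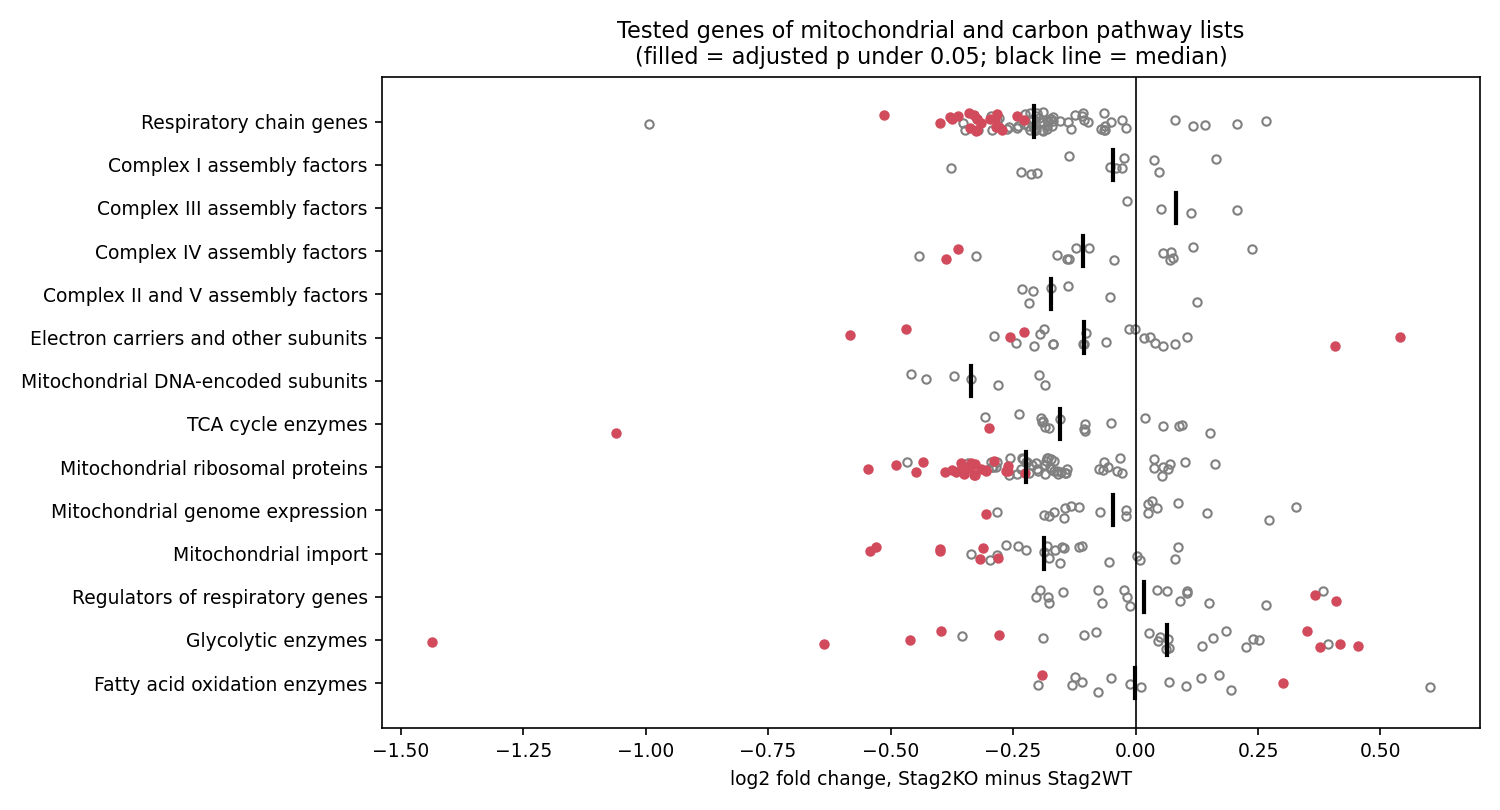
Log2 fold change of Stag2KO minus Stag2WT for every tested gene of the respiratory chain and of 13 related lists, with called genes filled and the median of each list as a black line. The median is -0.21 for the respiratory chain and -0.22 for the mitochondrial ribosome, and 0.02 for the regulators and 0.06 for glycolysis.

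Known regulators of respiratory genes had no common direction. Of 20 tested, 2 rose and 0 fell, where 10.7% of all tested genes were called higher and 10.5% lower. The median was 0.02. At an unadjusted p under 0.05, 3 were higher and 5 lower, and DESeq2 called 1 lower. Gabpb1, a subunit of the ETS factor GABP, was at 72.3, 73.8 and 71.8 CPM in Stag2KO and 54.8, 55.1 and 59.1 CPM in Stag2WT (0.37, SE 0.06, adjusted p = 0.00558), and the deacetylase gene Sirt3 was at 37.6, 39.7 and 37.6 against 28.999, 28.0 and 29.5 CPM (0.41, SE 0.07, adjusted p = 0.00717). Both held without any 1 library. Gabpb2 (-0.19, adjusted p = 0.0613), Nrf1 itself (-0.18, adjusted p = 0.0831), Gabpa (-0.02), Yy1 (-0.07) and Myc (0.06) were not called. With the unannotated read share as covariate, these calls were lost (adjusted p for Gabpb1 0.454, Sirt3 0.481, Cycs 0.416, Gpd2 0.205, Pcx 0.259, and for Mrps23 of the ribosome list 0.512).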

How the data were processed

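RNA of 6 libraries was analysed. The deposited table holds whole-number counts by gene symbol, not normalized by the authors as far as its values show. The submitters' processing notes name build mm9 and the tools HTSeq 0.6.1, STAR 2.4 and DESeq2; the sources used here do not give the annotation, strand setting or kit of these samples. Columns were mapped to samples by title and replicates numbered in accession order. Counter totals naming no gene (8.81% to 12.8% of a library's total in no annotated gene, 2.02% to 2.2% ambiguous) entered neither library sizes nor tests.

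edgeR 4.0.16 (under R 4.3.3) gave the tests: TMM normalization, filterByExpr, robust quasi-likelihood estimation, genotype alone in the model, two-sided, and Benjamini-Hochberg adjustment over 15708 genes. Log2 fold changes, standard errors and calls (adjusted p under 0.05) are rows of that fit. CPM values use TMM-scaled library sizes, and percentages of gene reads use unscaled reads. Gene reads of 29435651 to 37722325 per library set the counting precision, which does not cover amplified copies.

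Text names every gene of the set called with an absolute log2 fold change of at least 0.5, the 3 smallest p of each complex, the complex I core, isoform groups, Atp5s and Atp5sl, and the 3 smallest p of each pathway list; other genes were picked after their values were seen. A result for a gene of the set is not reported here. The set and the lists were chosen with earlier results of these data known. The alternatives tried were each library left out, the unannotated read share as covariate, DESeq2 1.42.0, limma-voom (limma 3.58.1), estimation without robustness, median-ratio size factors, and filters of 1 read or of 5 CPM in 3 libraries. Promoter letters are from RefSeq (GRCm38.p6) and overlaps from GENCODE M21; no coordinates were moved to mm9.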

Additional observations from a re-analysis of the deposited data

How the results depend on the processing

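The 20 calls of respiratory chain genes kept their direction under every alternative run. Numbers called lower were 22 with median-ratio size factors, 24 without a filter beyond 1 read, 20 with 5 CPM in at least 3 libraries, 27 with DESeq2, 19 with limma-voom, 17 without robust estimation and, chosen after seeing the data, 23 without the mitochondrial DNA genes; 0 were called higher in any of these. Leaving out 1 library gave 2 to 18 called lower, 901 to 1311 genes of the whole table lower and 962 to 1256 higher (1647 and 1686 in the full fit). The median of the respiratory genes ran from -0.25 to -0.13 without 1 library and was -0.051 with the unannotated read share as covariate. That covariate left 0 respiratory genes called, and 23 lower and 44 higher in the whole table; the cause was not tested. The summed level of the 85 genes in Stag2KO was 86.8% of Stag2WT with TMM, 86.4% with median-ratio size factors and 89.4% with unscaled reads. No scaling moved the median of all genes by over 0.1. No paired analysis was possible because the labels give sample codes with no replicate numbers shared between the groups. Depth limits Cox4i2, Cox7a1 and the 5 untested genes.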

Other observations

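Glycolysis, the other main route to ATP, had calls in both directions, and its summed level was higher in Stag2KO. Of 26 tested enzymes, transporters and regulators, 4 rose, 5 fell and 17 were not called. Over all tested genes, 10.7% were called higher and 10.5% lower. The median log2 fold change was 0.06, with 17 positive and 9 negative. Summed, the 26 stood at 6072, 5468 and 5738 CPM in Stag2KO and 4974, 5237 and 5433 CPM in Stag2WT. That is 110.4% of Stag2WT, without overlap between groups, and was not tested. The glucose transporter gene Slc2a3 rose from 91.6 ± 5.32 to 119 ± 7.98 CPM (0.38, adjusted p = 0.00994) and the isomerase gene Gpi1 from 611 ± 40.8 to 838 ± 92.2 CPM (0.45, adjusted p = 0.015, edgeR). Aldoa, picked after its values were seen, also rose (0.42, adjusted p = 0.0152). The pyruvate dehydrogenase kinase gene Pdk4 fell from 0.924 ± 0.0951 to 0.343 ± 0.1 CPM (-1.44, adjusted p = 0.0133), and Hk3 (-0.28, adjusted p = 0.0155), Pfkm (-0.64, adjusted p = 0.0229) and Ldhb (-0.46, adjusted p = 0.0236), also picked later, fell too. The calls of Slc2a3, Gpi1 and Pdk4 held without any 1 library (n = 3 against 3 in the full fit).

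Of 16 genes of fatty acid oxidation, 1 rose, 1 fell and 14 were not called, where 10.7% of all tested genes were called higher and 10.5% lower. The hydratase gene Echs1 rose from 74.9 ± 1.82 to 92.2 ± 2.63 CPM (0.30, adjusted p = 0.00947), with the call held without any 1 library. The dehydrogenase gene Acadl fell (-0.19, adjusted p = 0.0431), a call lost in each fit without 1 library (adjusted p 0.0622 to 0.118) and without a filter beyond 1 read (0.0705). The related gene Acads was not called (0.19, adjusted p = 0.0558).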
